A study of Mus musculus with 5 samples.

Results

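The makorin genes Mkrn1, Mkrn2 and Mkrn3 were followed across 5 microarrays of an RNA immunoprecipitation experiment (RIP-chip) in mouse embryonic stem cells. They were taken by their symbols in the platform's probe-to-gene table, which gave 3 genes of the 19937 with a probe set of their own. Each was measured by 1 probe set, 10544186 for Mkrn1, 10540923 for Mkrn2 and 10564262 for Mkrn3, and none of the 3 probe sets named a second gene. A probe set of the pseudogene Mkrn1-ps1 and one of Gm10244, a non-coding RNA gene that RefSeq also lists as Anmkrn1, are described beside them as relatives and are not counted among the 3.

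The cells were R1, a male embryonic stem cell line of 129X1 x 129S1 background, resistant to G418 and grown on gelatin with LIF and serum after a first passage on mouse embryonic fibroblasts. The line labelled FLAG:MKRN1 carried a pCAGGS construct for constitutive expression of MKRN1 with an N-terminal 3xFLAG tag, and the line labelled FLAG:Ctrl carried the pCAGGS construct with the tag alone. The 5 arrays were an anti-FLAG RIP, an IgG RIP and an input from FLAG:MKRN1 lysate, and an anti-FLAG RIP and an input from FLAG:Ctrl lysate, with 1 array in each group. The design therefore has no replicate error, the difference between any pair of arrays has no replicate check, and no test was possible. The labels describe the lines as clones and do not say how many were used, so a difference between FLAG:MKRN1 and FLAG:Ctrl lysates cannot be told apart from a difference between clones.

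Makorins are proteins with a RING domain and CCCH-type zinc fingers. The RING domain makes them E3 ubiquitin ligases, which choose the proteins to be ubiquitylated, and the zinc fingers bind RNA. MKRN1 is known as a ligase for regulators of cell death and metabolism and, in human cells, as a partner of the cytoplasmic poly(A)-binding protein at stalled ribosomes. MKRN2 is a close paralogue with described roles in inflammatory signalling, and Mkrn3 is an intronless, imprinted gene expressed from the paternal allele, whose human counterpart is mutated in central precocious puberty.

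Promoter sequence from RefSeq (GRCm38.p6) was matched for 2 of the 3 genes, Mkrn1 and Mkrn3; Mkrn2 is named only. The 250 bases before an annotated start are shown because the Mkrn1 window lies almost wholly within the annotated gene Gm10244, whose values stand apart from those of Mkrn1 below, and because the Mkrn3 window gives the contrasting sequence of an imprinted relative. The Mkrn1 window is chr6:39420370-39420619 on the minus strand, and 242 of its bases overlap Gm10244. The Mkrn3 window is chr7:62420154-62420403, also on the minus strand. Mkrn1 has a further annotated start whose window, not printed, had 72% G and C, 35 CpG dinucleotides and 2 GGGCGG. RefSeq gives the Mkrn1 gene the span chr6:39397804-39423299. Both Mkrn1 windows thus lie inside the gene, and neither marks its outermost start. Capitals mark the motifs found.
Mkrn1: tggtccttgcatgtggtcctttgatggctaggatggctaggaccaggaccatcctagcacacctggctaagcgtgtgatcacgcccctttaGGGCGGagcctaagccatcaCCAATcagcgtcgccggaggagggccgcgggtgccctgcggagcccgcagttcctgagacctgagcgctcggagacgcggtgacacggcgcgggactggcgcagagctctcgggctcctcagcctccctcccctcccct
Mkrn3: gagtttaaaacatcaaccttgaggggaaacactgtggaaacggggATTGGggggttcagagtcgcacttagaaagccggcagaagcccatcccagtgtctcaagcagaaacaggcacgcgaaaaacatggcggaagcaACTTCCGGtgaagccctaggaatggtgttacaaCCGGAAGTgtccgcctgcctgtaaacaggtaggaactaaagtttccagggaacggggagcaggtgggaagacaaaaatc

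The 2 windows differed in composition. The Mkrn1 window had 66% G and C and 19 CpG dinucleotides, and the Mkrn3 window had 52% and 10, against medians of 52.4% and 6 over 32851 windows of this length. Searched on both strands were 6 motifs: the CCAAT box, the GC box GGGCGG bound by Sp1-type factors, the ETS factor motif CCGGAAGT, the TATA box in its form TATAAA, the E-box in its form CACGTG and the octamer motif ATGCAAAT. None of these motifs overlapped another in the windows printed. The Mkrn1 window held 1 CCAAT and 1 GGGCGG. The Mkrn3 window held 1 CCAAT, read on its opposite strand as ATTGG, and 2 copies of CCGGAAGT, of which the first reads ACTTCCGG on the strand shown. The CCAAT box was present in 33.8% of all windows, the GC box in 32.7% and the ETS motif in 2.88%. The other 3 motifs, present in 12.4%, 6.02% and 1.6% of windows, were not found in either. A match is a description of letters and was not tested as a binding site.

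All values below are the log2 signals of the authors' deposited table. Of the 19937 genes, 11502 had a mean signal at or above 5.76, the median over all probe sets, and these kept genes are the background for each comparison. All 3 makorin genes were among them, so no makorin gene was lost to the level filter. A probe set's level depends on its own probes, so levels are compared between arrays and not between genes. The 10 stem cell markers examined were all kept, with medians of 10.70 to 11.03 on the 5 arrays. Among them Klf4 differed between the lines. It was at 7.22, 7.76 and 7.65 in the anti-FLAG RIP, IgG RIP and input of FLAG:MKRN1 lysate. In the anti-FLAG RIP and input of FLAG:Ctrl lysate it was at 8.78 and 8.82. Of 10 fibroblast markers 5 were kept, with medians over the 10 of 5.54 to 5.92, 3 were below the filter on all arrays, and Thy1 lay between 8.25 and 9.88. Of 6 primitive endoderm and 6 trophectoderm markers 4 each were kept, with medians of 5.70 to 6.05 and 5.97 to 6.39. The primitive endoderm marker Dab2 differed between the lines, at 6.54, 6.92 and 6.48 in the anti-FLAG RIP, IgG RIP and input of FLAG:MKRN1 lysate and at 8.34 and 8.23 in the anti-FLAG RIP and input of FLAG:Ctrl lysate. The part of such cells in any makorin value was not tested.

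Mkrn1 RNA, the transcript of the gene that was tagged, did not separate the lines. Its signal was 11.90 in the FLAG:MKRN1 anti-FLAG RIP, 11.99 in the FLAG:MKRN1 IgG RIP, 11.71 in the FLAG:MKRN1 input, 12.20 in the FLAG:Ctrl anti-FLAG RIP and 11.80 in the FLAG:Ctrl input. The FLAG:MKRN1 input was thus the lowest of the 5 arrays and the FLAG:Ctrl anti-FLAG RIP the highest. Which part of the transcript the probe set reads, and which MKRN1 coding sequence the construct carried, are unknown here. Directions drawn from the array labelled FLAG:MKRN1 anti-FLAG RIP, called the MKRN1-labelled RIP from here on, therefore rest on the label.

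The order of the Mkrn1 signals followed the fraction and not the line. All 3 RIPs lay above both inputs, with means of 12.03 over the RIPs and 11.76 over the inputs. The gap between the lowest RIP and the highest input was 0.09, and it was -0.03 once each array was centred on its median, so that order is not secure. The whole range over 5 arrays was 0.49 on the log2 scale, and 44.5% of kept genes had a smaller range, against a median range of 0.55. The FLAG:Ctrl anti-FLAG RIP was the highest and the FLAG:MKRN1 input the lowest array under every scaling for which the order was computed.

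Mkrn2 RNA was at a steady level. It was 9.62 in the MKRN1-labelled RIP, 9.47 in the IgG RIP, 9.62 in the FLAG:MKRN1 input, 9.72 in the FLAG:Ctrl anti-FLAG RIP and 9.83 in the FLAG:Ctrl input. The MKRN1-labelled RIP and its own input held the same value within 1e-06, and the IgG RIP was lowest. Its range was 0.37, and 31.6% of kept genes had a smaller one. It was the narrowest range of the 3 genes as deposited and with median centring, but after quantile normalization it was 0.50 for Mkrn2 and 0.41 for Mkrn1, and after centring over kept genes 0.44 and 0.37. For Mkrn2 both arrays of FLAG:Ctrl lysate lay above all 3 of FLAG:MKRN1 lysate, so its order followed the line. That separation was lost after quantile normalization, where the highest FLAG:MKRN1 value was 0.20 above the lowest FLAG:Ctrl value, and after centring over kept genes, where it was 0.07 above.

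Mkrn3 RNA lay near the level filter on every array. Its signal was 5.91 in the MKRN1-labelled RIP, 6.12 in the IgG RIP, 5.54 in the FLAG:MKRN1 input, 5.85 in the FLAG:Ctrl anti-FLAG RIP and 5.83 in the FLAG:Ctrl input. The FLAG:MKRN1 input was the 1 array of 5 below 5.76. Its range of 0.58 was the widest of the 3, with 53.0% of kept genes below it, and the IgG RIP stood highest under each scaling. No detection call was used here, so whether these values differ from the signal of a probe set without target was not tested.

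**Figure D1:**
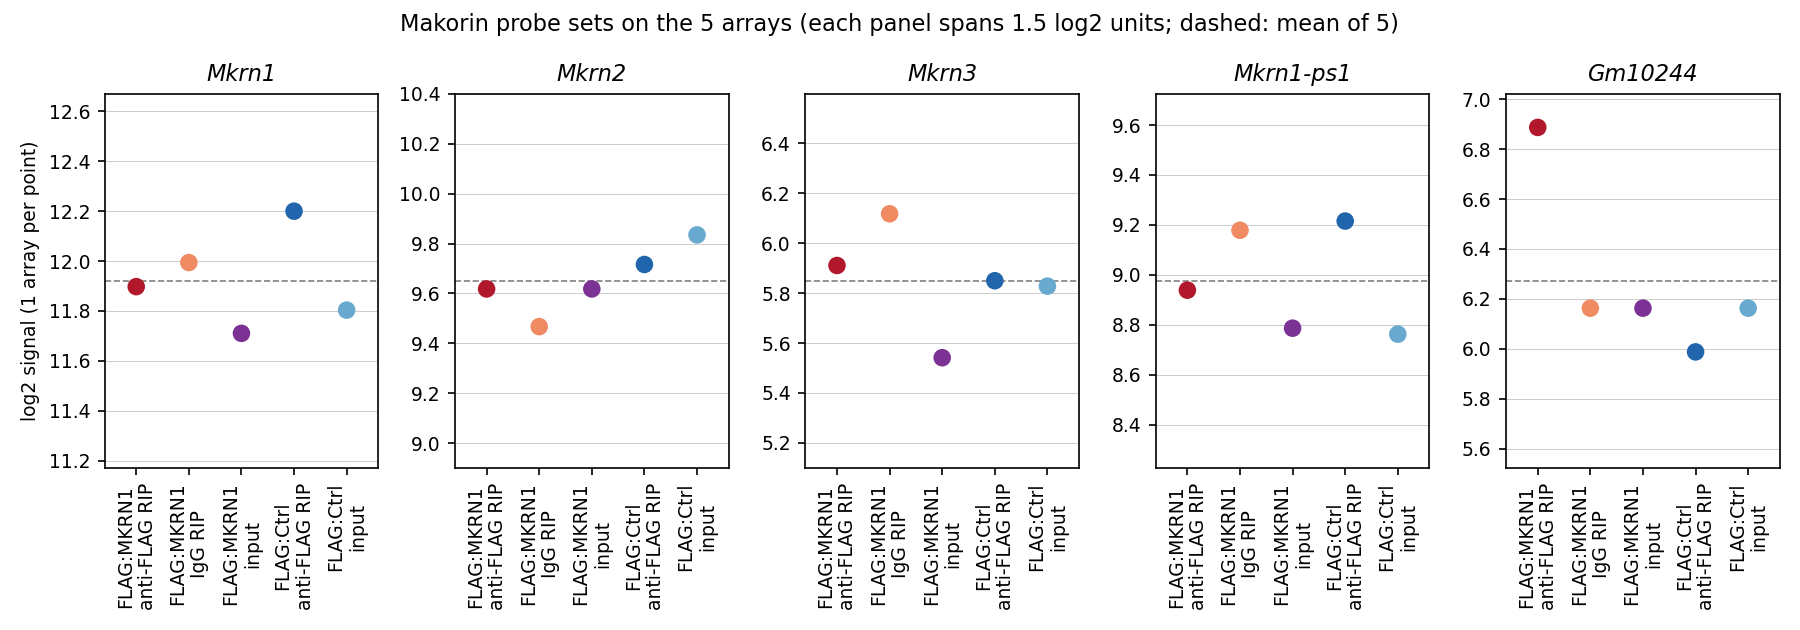
Log2 signal of Mkrn1, Mkrn2 and Mkrn3, and of the relatives Mkrn1-ps1 and Gm10244, on each of the 5 arrays, 1 point per array. Mkrn1 and Mkrn1-ps1 lie higher in all 3 RIPs than in both inputs, an order that Mkrn1 loses (a gap of -0.03) when arrays are centred on their medians, and Gm10244 is highest in the MKRN1-labelled RIP at 6.89.

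The comparison of the inputs asked whether steady-state makorin RNA differed between the lines. All 3 genes were lower in the FLAG:MKRN1 input, by log2 differences of -0.09 for Mkrn1, -0.22 for Mkrn2 and -0.29 for Mkrn3, and these signs held under every scaling tried. The markers Dab2, Thy1 and Klf4, named above, were also lower in the FLAG:MKRN1 input. They were at 6.48, 8.89 and 7.65, against 8.23, 9.88 and 8.82 in the FLAG:Ctrl input. Other markers were higher in the FLAG:MKRN1 input, so the markers did not move as a set. Among these, Krt7, Tfap2c and Dppa4 were at 6.82, 7.97 and 9.61, against 6.29, 7.46 and 9.41 in the FLAG:Ctrl input. The part of these marker differences in the makorin differences was not tested. None of the makorin genes reached 2-fold, the size at which 1.67% of kept genes differed between the inputs. Among 356 kept genes within 0.5 of the level of Mkrn1, the central 95% of input differences ran from -0.40 to 0.45. The corresponding ranges were -0.71 to 0.63 around Mkrn2 and -0.53 to 0.53 around Mkrn3, and each makorin gene lay inside its own.

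The next question was whether makorin transcripts were recovered with the tagged protein beyond the background of either control RIP. The log2 difference of Mkrn1 between the MKRN1-labelled RIP and the IgG RIP of the same lysate was -0.10, with alternatives between -0.27 and 0.13, so the sign was not fixed. Against the FLAG:Ctrl anti-FLAG RIP it was -0.30, and this sign held under all alternatives, from -0.51 to -0.09. The 2 shares of kept genes with a lower difference were 42.9% and 31.6%. The transcript of the gene used as bait therefore lay well within the bulk of genes in both comparisons.

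Mkrn2 lay on opposite sides of the 2 controls. Its difference was 0.15 from the IgG RIP and -0.10 from the FLAG:Ctrl anti-FLAG RIP, and both signs turned under some scalings, with ranges of -0.03 to 0.49 and -0.30 to 0.25. Mkrn3 differed by -0.21 from the IgG RIP in the values as deposited, and by between -0.39 and -0.06 under the alternatives. Its difference from the FLAG:Ctrl anti-FLAG RIP was 0.06, with alternatives from -0.14 to 0.35 on both sides of 0. None of the 3 genes was 2-fold away from either control, where 8.47% of kept genes differed by that much from the IgG RIP and 8.73% from the FLAG:Ctrl anti-FLAG RIP.

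Among kept genes at least 2-fold from a control RIP, most differences of the MKRN1-labelled RIP ran downward. Over all kept genes the median differences were -0.001 from the IgG RIP and -0.03 from the FLAG:Ctrl anti-FLAG RIP. Of all kept genes, 6.94% were at least 2-fold below the IgG RIP and 1.53% at least 2-fold above it, and 7.11% were below and 1.62% above the FLAG:Ctrl anti-FLAG RIP. The share of upward differences among the genes past 2-fold was 18.1% against the IgG RIP and 18.5% against the FLAG:Ctrl RIP. It ranged from 7.44% to 34.0% and from 7.49% to 37.1% under other scalings. Genes near the level of Mkrn1 had median differences of -0.23 and -0.20 from these controls, and genes near Mkrn2 had -0.36 from each. Genes near Mkrn3 had 0.12 and 0.13. The differences of -0.10 for Mkrn1 from the IgG RIP and of 0.15 and -0.10 for Mkrn2 thus stood above the medians of genes of like level, and that of -0.30 for Mkrn1 and both of Mkrn3 stood below.

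Recovery relative to input was compared within each lysate. Mkrn1 was higher in each RIP than in its own input, by 0.19 in the MKRN1-labelled RIP, 0.28 in the IgG RIP and 0.40 in the FLAG:Ctrl anti-FLAG RIP, and every alternative gave a positive value. Kept genes near the level of Mkrn1 had medians of -0.04, 0.12 and 0.11 in these comparisons. Of these genes 72.5%, 72.8% and 89.3% had lower differences than Mkrn1, so each of its differences lay within their spread. Mkrn2 differed by 0.00, -0.15 and -0.12 in the same 3 comparisons, and the first of these ranged from -0.11 to 0.16. Mkrn3 differed by 0.37, 0.58 and 0.02, of which the last ranged from -0.07 to 0.10. The shares of kept genes at least 2-fold from input were 7.98%, 1.78% and 1.32%, and no makorin gene was among them.

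The largest of all 18 makorin differences was that of Mkrn3 between the IgG RIP and the FLAG:MKRN1 input, 0.58 or 1.49-fold. It was also the 1 difference of 18 outside the central 95% of genes of like level, which ran from -0.43 to 0.53. It rests on the single Mkrn3 value below the level filter. With the input of its own lysate subtracted from each anti-FLAG RIP, a setting added after the values were seen, Mkrn1 was at 0.19 for the MKRN1-labelled RIP and at 0.40 for the FLAG:Ctrl anti-FLAG RIP, a difference of -0.21. In the same setting Mkrn2 differed by 0.12 and Mkrn3 by 0.35, and 64.4% and 79.9% of kept genes had lower differences.

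**Figure D2:**
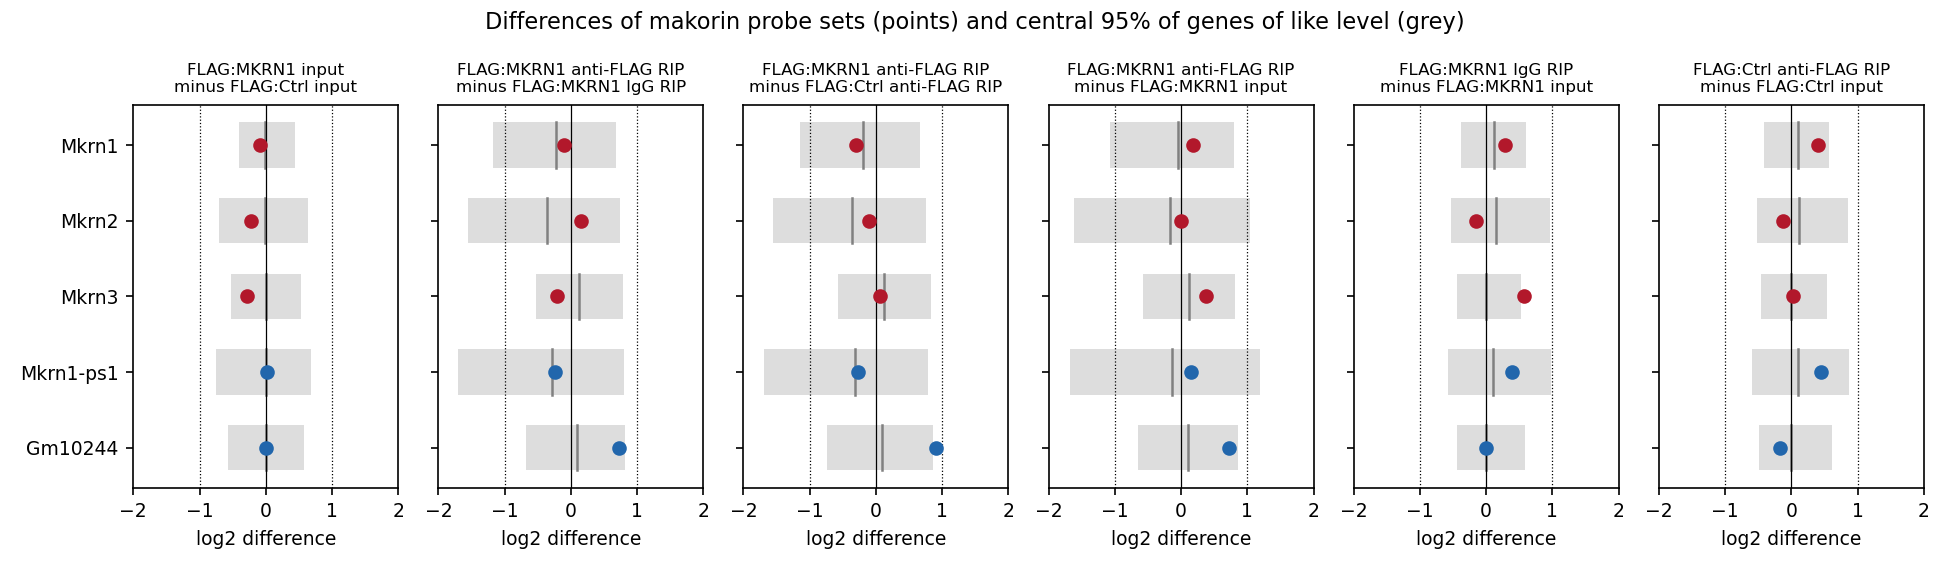
Log2 differences in the 6 comparisons of Mkrn1, Mkrn2 and Mkrn3 and of the relatives Mkrn1-ps1 and Gm10244, with bars for the central 95% of kept genes of like signal level. No makorin difference reaches 2-fold (1 on the log2 scale); the largest, 0.58 for Mkrn3 between the IgG RIP and the FLAG:MKRN1 input, passes the upper end of its bar at 0.53, and the differences of Mkrn1 from the IgG RIP, of Mkrn2 from both control RIPs and its own input in the MKRN1-labelled RIP, and of Mkrn3 between FLAG:Ctrl anti-FLAG RIP and either the MKRN1-labelled RIP or the FLAG:Ctrl input change sign under some scalings.

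The pseudogene Mkrn1-ps1, a copy of Mkrn1 in the mouse genome, followed Mkrn1 across the fractions. Its signal was 8.94 in the MKRN1-labelled RIP, 9.18 in the IgG RIP, 8.79 in the FLAG:MKRN1 input, 9.22 in the FLAG:Ctrl anti-FLAG RIP and 8.76 in the FLAG:Ctrl input. As for Mkrn1, the 3 RIPs lay above both inputs in the values as deposited, with means of 9.11 and 8.77. For Mkrn1-ps1 this order held under each scaling for which it was computed, unlike that of Mkrn1. The FLAG:Ctrl anti-FLAG RIP was highest under each of these scalings. The difference from input was 0.15 in the MKRN1-labelled RIP, 0.39 in the IgG RIP and 0.45 in the FLAG:Ctrl anti-FLAG RIP, positive under every scaling tried. It differed by -0.24 from the IgG RIP and by -0.28 from the FLAG:Ctrl anti-FLAG RIP, and both signs turned under some scalings, with highest values of 0.06 and 0.03.

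Mkrn1-ps1 lies within the span of Slc4a4, a sodium bicarbonate transporter gene, whose own probe set was below the level filter on all arrays. Slc4a4 was at 5.20 in the MKRN1-labelled RIP, 4.87 in the IgG RIP, 4.95 in the FLAG:MKRN1 input, 4.97 in the FLAG:Ctrl anti-FLAG RIP and 4.95 in the FLAG:Ctrl input. It did not share the order of the pseudogene across the arrays. Whether the Mkrn1-ps1 probes also read Mkrn1 RNA was not tested, because probe sequences were not used here, and the signal of the pseudogene is uncertain for that reason.

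Gm10244, which lies within the span that RefSeq gives the Mkrn1 gene and overlaps the promoter window printed, had a different profile from Mkrn1. Its signal was 6.89 in the MKRN1-labelled RIP, 6.16 in the IgG RIP, 6.16 in the FLAG:MKRN1 input, 5.99 in the FLAG:Ctrl anti-FLAG RIP and 6.16 in the FLAG:Ctrl input. The MKRN1-labelled RIP stood above the other 4 arrays, which lay close together, and 3 of them held the same value. The difference was 0.72 from the IgG RIP, 0.90 or 1.86-fold from the FLAG:Ctrl anti-FLAG RIP and 0.72 from its own input.

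These values were high among kept genes, since 96.3%, 97.8% and 94.2% of them had lower differences in the same comparisons. The difference of 0.90 lay above the central 95% of genes of like level, which reached 0.86, and that of 0.72 from the IgG RIP lay inside a range that reached 0.81. All 3 stayed positive under every scaling tried, and the one from the FLAG:Ctrl anti-FLAG RIP ranged from 0.69 to 1.06 and so passed 2-fold in 1 setting added later. Between the inputs Gm10244 differed by 0.00. Mkrn1 and Gm10244 overlap, and the sources used here do not say which strand each probe set reads, so whether either also reads RNA of the other was not tested.

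By the root mean square distance between profiles, each gene's values taken around its own mean over the 5 arrays, the genes most like Mkrn1 were Ldhb at 0.0226, Zfp42 at 0.0265, Prc1 at 0.0286, Bbs7 at 0.0314 and Lmnb1 at 0.0316. Zfp42 encodes REX1, a marker of embryonic stem cells, Ldhb a lactate dehydrogenase subunit and Lmnb1 a nuclear lamin. Zfp42 was at 10.93 in the MKRN1-labelled RIP, 11.10 in the IgG RIP, 10.77 in the FLAG:MKRN1 input, 11.27 in the FLAG:Ctrl anti-FLAG RIP and 10.89 in the FLAG:Ctrl input, the same order of arrays as Mkrn1. The measure rests on 5 arrays and 11502 genes and is a description only.

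In that ranking by likeness to Mkrn1, Mkrn1-ps1 stood at place 98 with a distance of 0.0752, Mkrn3 at 2179 with 0.168, Mkrn2 at 4869 with 0.216 and Gm10244 at 9796 with 0.392. The makorin genes thus did not share a profile. The genes nearest to Mkrn2 were Nol6 at 0.0185, Usp31, Sec24c, Iffo2 and Ubald1 at 0.0359, among them a ribosome biogenesis factor (Nol6) and a coat protein of secretory vesicles (Sec24c). Nearest to Mkrn3 were Ercc1 at 0.0261, Spryd4, Nrde2, Ngly1 and Sh3gl2 at 0.0450. After quantile normalization 2 of the 5 genes for Mkrn1, 1 for Mkrn2 and 0 for Mkrn3 were again among the nearest 5.

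**Figure D3:**
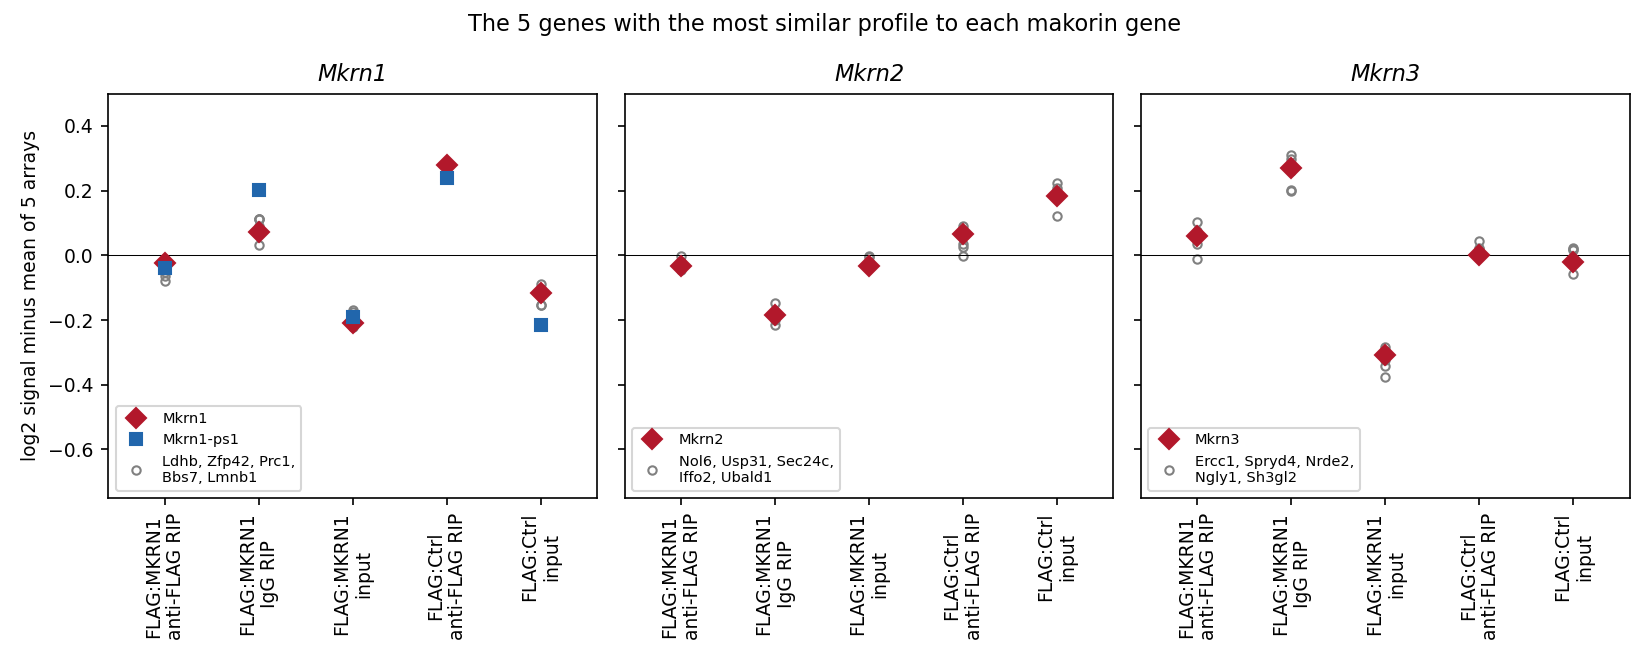
Profiles of Mkrn1, Mkrn2 and Mkrn3 over the 5 arrays, each with its 5 nearest genes (open circles) and, beside Mkrn1, the pseudogene Mkrn1-ps1, as log2 signal minus the gene's own mean over the arrays. The Mkrn1 group peaks in the FLAG:Ctrl anti-FLAG RIP, the Mkrn2 group is highest in the FLAG:Ctrl input, and the Mkrn3 group is highest in the IgG RIP. The 5 genes of each group were chosen for likeness over these same arrays, so a shared peak follows from the choice.

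The transcripts of proteins that makorins act on or with were examined next, as recovered RNA and not as protein. Of 10 genes for described MKRN1 substrates 6 were kept. Of these, 0 were at least 2-fold above both control RIPs, where 1.1% of kept genes were, and 1 was 2-fold below both, where 5.41% were. Their median difference was -0.10 from the IgG RIP and -0.16 from the FLAG:Ctrl anti-FLAG RIP, beside -0.00 and -0.03 over all kept genes.

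The substrate gene 2-fold below both controls was Prkaa2, which encodes a catalytic subunit of the energy sensor AMPK. It was at 6.21 in the MKRN1-labelled RIP, 7.33 in the IgG RIP, 7.39 in the FLAG:MKRN1 input, 7.33 in the FLAG:Ctrl anti-FLAG RIP and 7.37 in the FLAG:Ctrl input, so 1 array stood apart and the others lay within 0.06. At the other end Cdkn2a, whose ARF product is a described MKRN1 target, was at 6.81 in the MKRN1-labelled RIP, 6.11 in the IgG RIP, 6.11 in the FLAG:MKRN1 input, 5.93 in the FLAG:Ctrl anti-FLAG RIP and 6.11 in the FLAG:Ctrl input. Its differences of 0.70 and 0.88 did not reach 2-fold.

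Of 21 genes for poly(A)-binding and cytoplasmic mRNA-binding proteins 19 were kept. Of these 0 were 2-fold above both controls and 0 below both, where 1.1% and 5.41% of all kept genes were. The medians of the list were -0.24 and -0.25 from the IgG and FLAG:Ctrl RIPs. They shrank to -0.01 and -0.04 once the trend with signal level was removed. Pabpc1, the main cytoplasmic poly(A)-binding protein and the described partner of MKRN1, differed by -0.16 and -0.24. The ends of the list were Pabpc5, at 0.10 and 0.18, and the stress granule protein G3bp2, at -0.65 and -1.28. The probe sets of Igf2bp1, an RNA-binding protein, disagreed, since the brighter gave -0.45 and -0.85 and the other -1.19 and -1.69, 2-fold below both controls. Between the inputs of the lines G3bp2 differed by -0.46, the brighter Igf2bp1 probe set by -0.24 and the other by -1.08. The part of these input differences in the RIP differences was not tested.

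Of 22 genes for ribosome stalling and ribosome-associated quality control 21 were kept, with 0 at least 2-fold above both controls and 2 at least 2-fold below, where 1.1% and 5.41% of all kept genes were. Those were Ltn1, the ligase that ubiquitylates stalled nascent chains, and Usp10, a deubiquitinase of ribosomal proteins. Ltn1 was at 7.95 in the MKRN1-labelled RIP, 9.78 in the IgG RIP, 9.78 in the FLAG:MKRN1 input, 9.86 in the FLAG:Ctrl anti-FLAG RIP and 9.84 in the FLAG:Ctrl input. Of its 16 probe sets 9 were 2-fold below both controls, and the difference from the IgG RIP ranged from -4.81 to 0.78 among them, so the probe sets of this gene disagreed.

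Usp10 was at 8.67 in the MKRN1-labelled RIP, 9.94 in the IgG RIP, 9.53 in the FLAG:MKRN1 input, 9.90 in the FLAG:Ctrl anti-FLAG RIP and 9.60 in the FLAG:Ctrl input. It was thus lowest in the MKRN1-labelled RIP, with differences of -1.26 and -1.23 from the controls. Zfp598, the ligase that marks collided ribosomes, had the highest difference of the list, 0.39 from each control. The medians of the list, -0.21 and -0.21, were -0.01 and -0.05 after quantile normalization and 0.01 and 0.02 with the trend with level removed.

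Of 16 genes for ubiquitin-conjugating enzymes and ubiquitin supply 12 were kept. Of these 0 were 2-fold above both controls and 0 below both, where 1.1% and 5.41% of all kept genes were. Ube2d1, an enzyme of the family that serves many RING ligases, was at 9.14 in the MKRN1-labelled RIP, 8.14 in the IgG RIP, 8.46 in the FLAG:MKRN1 input, 7.74 in the FLAG:Ctrl anti-FLAG RIP and 7.53 in the FLAG:Ctrl input. It was highest in the MKRN1-labelled RIP but also differed by 0.93 between the inputs. Its difference of 0.997 from the IgG RIP fell just short of 2-fold, while that of 1.41 from the FLAG:Ctrl RIP passed it. Ube2v2, at the other end, differed by -0.72 and -0.43. The 3 probe sets of Ube2v1, an enzyme variant without catalytic activity, disagreed: the brightest gave -0.29 and -0.38, another -0.97 and -0.98, and the dimmest 1.75 and 1.68, 2-fold above both controls. That dimmest probe set also differed by -1.43 between the inputs, at 4.92 in FLAG:MKRN1 and 6.35 in FLAG:Ctrl. The part of this input difference in its RIP differences was not tested. The list had medians of -0.03 and -0.00, whose signs turned under quantile normalization, to 0.06 and 0.09.

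Of 9 genes described as targets or partners of MKRN2 or MKRN3, 6 were kept. Of these 0 were 2-fold above both controls and 0 below both, where 1.1% and 5.41% of all kept genes were. The medians of the list were -0.05 and 0.06, and 0.02 and -0.03 with the trend with level removed. Mbd3, a subunit of the NuRD chromatin complex and a described target of MKRN3, had the highest differences, 0.37 and 0.29. Igf2bp1 had the lowest, -0.45 and -0.85 for its brighter probe set. Its other probe set lay 2-fold below both controls and differed by -1.08 between the inputs. Of 8 genes of the kisspeptin and GnRH axis, the pathway of puberty onset in which Mkrn3 is known, 2 were kept. Of the kept genes of this axis 0 were 2-fold above both controls and 0 below both, beside the same shares of all kept genes. Kiss1 differed by 0.56 and 0.53 and Gnrh1 by -0.34 and 0.11 from the IgG and FLAG:Ctrl RIPs. Gnrh1 also differed by -0.91 between the inputs. It was below its own input by -1.11 in the MKRN1-labelled RIP, -0.77 in the IgG RIP and -2.13 in the FLAG:Ctrl anti-FLAG RIP.

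The pluripotency factors, all 12 of which were kept, held 0 genes 2-fold above both controls or below both, where 1.1% and 5.41% of all kept genes were. Against the FLAG:Ctrl anti-FLAG RIP alone 3 were at least 2-fold lower, where 7.11% of kept genes were. They were Tbx3 at -1.74, Klf4 at -1.56 and Utf1 at -1.17. Between the inputs 1 of the 12, Klf4, was 2-fold lower, at -1.17, and the part of this in its RIP difference was not tested. The medians of the list were -0.14 from the IgG RIP and -0.47 from the FLAG:Ctrl anti-FLAG RIP, and after quantile normalization 0.08 and -0.34. Tbx3, which had the lowest difference, was at 6.46 in the MKRN1-labelled RIP, 7.24 in the IgG RIP, 7.72 in the FLAG:MKRN1 input, 8.20 in the FLAG:Ctrl anti-FLAG RIP and 8.26 in the FLAG:Ctrl input. All 3 arrays of FLAG:MKRN1 lysate thus lay below both of FLAG:Ctrl lysate. Prdm14, at the other end, differed by 0.23 and -0.16.

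**Figure D4:**
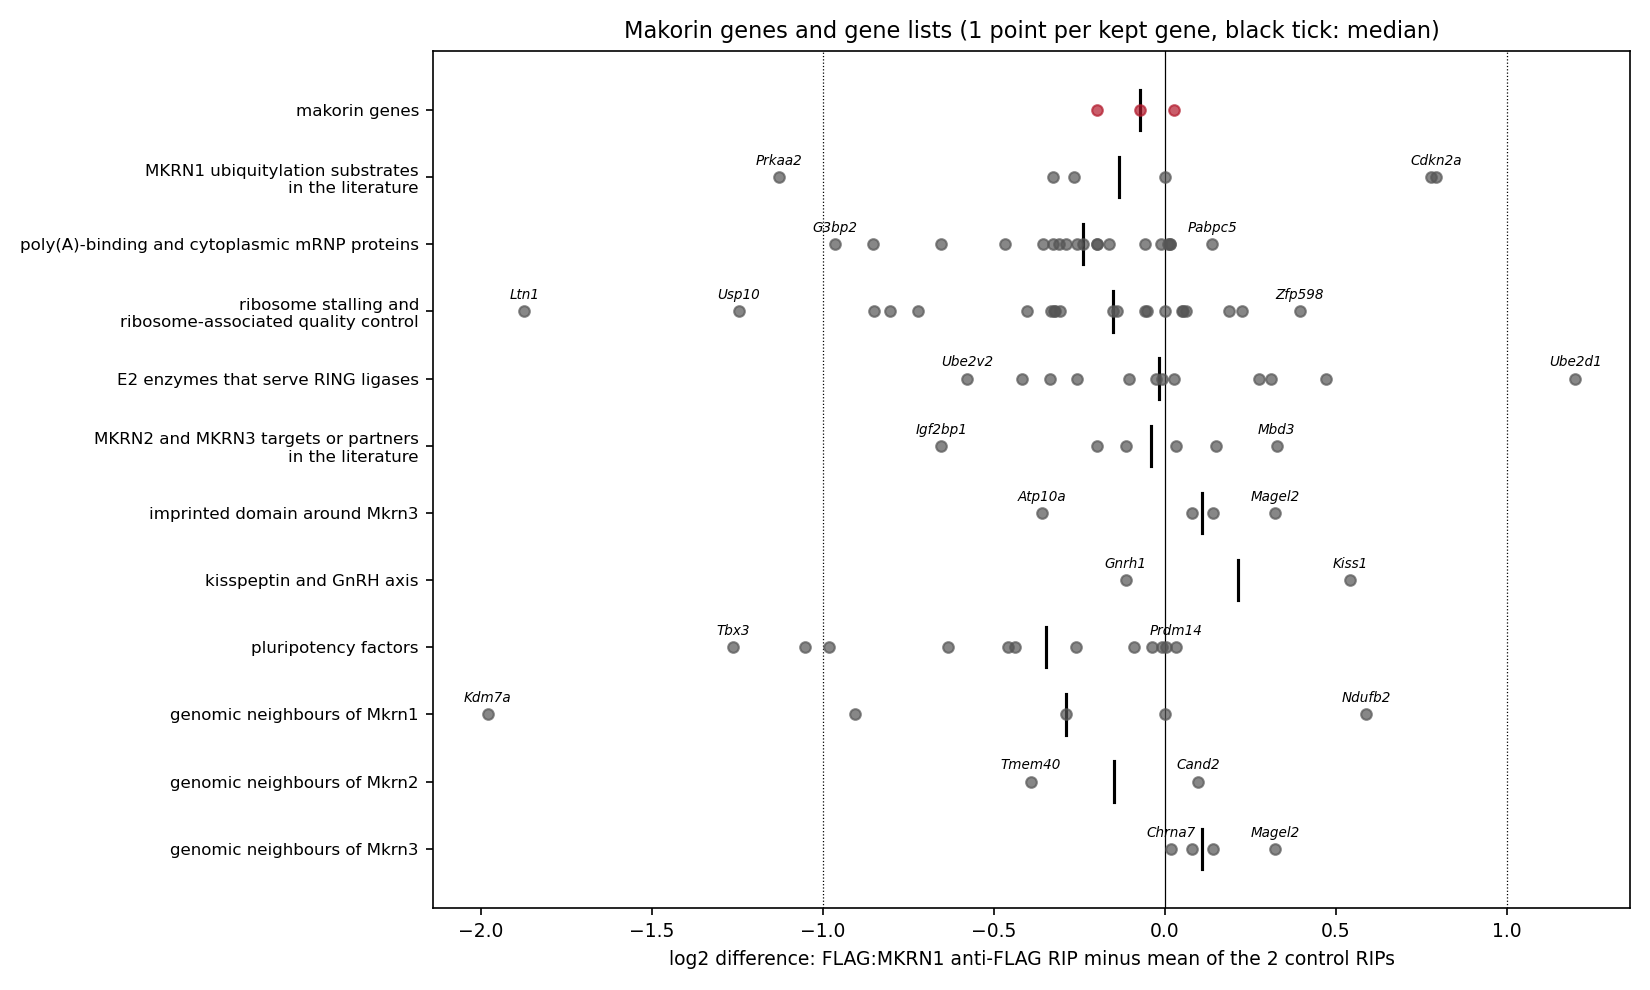
Log2 difference of the MKRN1-labelled RIP from the mean of the 2 control RIPs for each kept gene of the lists, 1 row per list, with a tick at the median and dotted lines at 2-fold. The 3 makorin genes lie between -0.20 and 0.03 (from -0.39 to 0.33 under other scalings, where Mkrn2 and Mkrn3 change sign). Ltn1, Kdm7a, Usp10 and Prkaa2 are the list genes at least 2-fold below both control RIPs, where 5.41% of all kept genes were.

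The genes next to each makorin gene on its chromosome were compared as a measure of local signal. Of 6 neighbours of Mkrn1 5 were kept, with medians of -0.04 from the IgG and -0.53 from the FLAG:Ctrl RIP. Of these 0 were 2-fold above both controls and 1 was 2-fold below both, against 1.1% and 5.41% of all kept genes. That was the histone demethylase gene Kdm7a, at 5.57 in the MKRN1-labelled RIP, 7.43 in the IgG RIP, 7.32 in the FLAG:MKRN1 input, 7.66 in the FLAG:Ctrl anti-FLAG RIP and 7.46 in the FLAG:Ctrl input. Its second probe set gave -0.83 and -1.03 in place of -1.87 and -2.09. Ndufb2, a subunit of respiratory complex I, was highest among the neighbours at 0.59 from each control, and Slc37a3 (-0.81 and -0.999), Dennd2a (-0.04 and -0.53) and Adck2 (0.00 from each) lay between; Rab19 was not kept.

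Among the neighbours of Mkrn2 analysed here 2 were kept. Cand2 differed by 0.11 and 0.08 and Tmem40 by -0.30 and -0.48 from the IgG and FLAG:Ctrl RIPs, and Pparg was not kept. Of 6 neighbours of Mkrn3 4 were kept. Of these 0 were 2-fold above both controls and 0 below both, where 1.1% and 5.41% of all kept genes were. The 4 had medians of 0.07 and 0.19 that were -0.11 and -0.02 once arrays were centred on their medians. Among these neighbours Ndn, Magel2 and Peg12 belong to the same imprinted domain as Mkrn3. Magel2 differed by 0.42 and 0.23, Ndn by -0.12 and 0.28, Peg12 by 0.14 and 0.15 and Chrna7 by 0.00 and 0.04, while Snrpn and A26c2 were not analysed here.

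Within the wider imprinted domain, 4 of 9 genes were kept, and Atp10a, a phospholipid flippase gene, had the lowest difference. It was at 6.17 in the MKRN1-labelled RIP, 6.62 in the IgG RIP, 7.24 in the FLAG:MKRN1 input, 6.45 in the FLAG:Ctrl anti-FLAG RIP and 5.75 in the FLAG:Ctrl input. The FLAG:MKRN1 input exceeded that of FLAG:Ctrl by 1.49 on the log2 scale, more than 2-fold, whereas Mkrn3 differed by -0.29 between the same arrays. A difference of 2-fold or more upward was found for 0.878% of kept genes between the inputs.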

How the data were processed

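RIP-chip signal was measured in 5 samples of R1 mouse embryonic stem cells, each the only array of its group, as their titles state it. Per the labels' protocols, each RIP used 4 mg of protein and 10 µg of antibody with 6 washes, and cDNA was made from 10 ng of RIP or input RNA and labelled with biotin. The table deposited by the authors gives a log2 signal for every probe set on every array. No label states that scale, which was taken from the spread of values between 2.56 and 14.4. Their background correction, summarisation, normalization and genome build were not given in the sources used here. Column medians were 5.68 to 5.88, and no further scaling was applied.

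Of 34760 probe sets, 21640 had 1 gene symbol in the platform annotation, 1321 had several and 11799 were not named there. Of the first, 21553 matched the RefSeq gene table of GRCm38.p6, which updated their symbols. For a gene with several probe sets the one with the highest mean was taken. Genes with a mean at or above 5.76 were kept. With 1 array per group no test was run; differences of log2 values were counted at 2-fold and set beside all kept genes and beside kept genes within 0.5 of the same mean level. Many kept genes, 52.8%, held one value on at least 2 arrays, so equal values are common in this table. Arrays have no sequencing depth, and their number limits precision.

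The makorin genes, the gene lists, markers and motifs were chosen with earlier results of these data known. Genes named are the makorin genes and relatives, the 5 most similar profiles of each, the highest and lowest member of each list by difference from the mean of the control RIPs, members 2-fold from both control RIPs, and the 3 named neighbours on each side. Named outside that rule, after their values were seen, were Pabpc1, Slc4a4, Thy1, Dab2, Klf4, Krt7, Tfap2c, Dppa4, Utf1, Ube2v1, Ndn and Peg12. The calculation of differences, counts and profile distances was tested on simulated data. Alternatives were median centring, quantile normalization, removal of the trend with level by lowess (fraction 0.3), other filters and thresholds, the median over probe sets and, added later, centring over kept genes and input subtraction. Analyses used Python 3.11.15, numpy 2.4.6, pandas 2.3.3, scipy 1.17.1, statsmodels 0.14.6 and matplotlib 3.10.9.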

Additional observations from a re-analysis of the deposited data

Results flagged for a closer look

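Gm10244, the non-coding RNA gene within the span of Mkrn1, differed from input in opposite directions in the 2 lysates: by 0.72 on the log2 scale for the FLAG:MKRN1 anti-FLAG RIP and by -0.18 for the FLAG:Ctrl one. With 1 array in each group, this difference was not tested.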

How the results depend on the processing

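Of 93 values of makorin differences under alternatives, 88 lay within 0.243 of the value reported. The size of 0.243 is the SD of differences between the control RIPs over kept genes. Of the 93, 12 had the opposite sign, and 0 reached 2-fold, with 0.65 the largest in size. For 18 of the 93 the alternative was the median over probe sets. It equals the value reported by construction, since each makorin gene has 1 probe set, so the 88 overstate the stability. The 5 that moved further were Mkrn2 against the IgG RIP, at 0.46 after quantile normalization and 0.49 with the trend removed, Mkrn2 against the FLAG:Ctrl RIP, at 0.20 and 0.25 in the same settings, and Mkrn3 against the FLAG:Ctrl RIP, at 0.35 with input subtracted (chosen after seeing the data). The cause was not tested. At 1.5-fold, 859 kept genes differed between inputs, 2797 from the IgG RIP, 2920 from the FLAG:Ctrl RIP and 2708 between MKRN1-labelled RIP and input; for the IgG and FLAG:Ctrl RIPs against input, 1020 and 888. Fewer genes were tested with the filter at 7.61, and 82 differed 2-fold between inputs, 119 between IgG RIP and input and 85 between FLAG:Ctrl RIP and input. Of the 5 profiles nearest to each gene, quantile normalization shared 2 for Mkrn1, 1 for Mkrn2 and 0 for Mkrn3, and without a filter 3 were shared for Mkrn3. Centring on all probe sets moved the median difference of kept genes by up to -0.20 and centring on kept genes, chosen after seeing the data as were the scalings of Mkrn1-ps1 and Gm10244, by up to 0.16. No paired analysis was possible because each group holds 1 array, and no array could be left out.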
